A study of Mus musculus with 2 samples.

Results

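The genes described here are 52 mouse regulators of chromatin, the packaging of DNA on histones, whose human counterparts are in many cases mutated in disorders that alter the face. They were chosen by gene symbol and found by gene identifier in both gene tables, and all 52 matched, out of 42462 genes with a symbol. RNA longer than 200 nt was measured by total RNA-seq in the facial prominence, the tissue that forms the face, of B6NCrl mouse embryos at embryonic day 10.5. There was 1 group, with no treatment, mutant allele or control: pool 1 (biological replicate 1) held tissue of 69 embryos and pool 2 (replicate 2) of 51, males and females mixed. The RNA input of each library was 10 ng. The values are therefore averages over all the cells of many embryos. In such bulk tissue, fewer cells of a type and less RNA per cell cannot be told apart. Genes received 40059134 estimated counts in pool 1 and 39531691 in pool 2. Levels are given in TPM, a unit that scales reads by transcript length and library size, in the order pool 1, pool 2, or as mean ± SD with n = 2 pools.

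Polycomb complexes keep genes silent by modifying histone tails, and trithorax-group methyltransferases mark genes for activity. Demethylases erase such marks, CHD and BAF enzymes use ATP to move nucleosomes, and acetyltransferases and deacetylases set how open chromatin is. In the face many of these proteins act in neural crest cells, which give rise to most of the facial skeleton, and the loss of 1 copy of such a gene is often enough for a malformation syndrome.

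All 52 genes were detected, with at least 1 TPM in both pools, where 58.2% of the 21474 named protein coding genes were. They spanned a wide range, from Cbx7 at 2.06 and 1.74 TPM to Smarce1 at 326 and 308 TPM. At least 10 TPM in both pools was reached by 46 of the 52 (38.3% of protein coding genes), and at least 100 TPM by 11 of the 52 (7.63%). Their median was 29.2 TPM (29.0 in both pools), beside 20.1 TPM for the 12494 detected protein coding genes, and 33 of the 52 lay above that second median. The highest complex by median was BAF at 81.4 TPM, followed by the CHD remodelers at 57.5 and the demethylases at 33.5 TPM. Acetylation enzymes had a median of 23.1, polycomb genes of 20.7 and the trithorax and other histone methyltransferases of 14.7 TPM. Levels within a complex spread widely: polycomb genes ran from 1.90 to 128 TPM and demethylases, the narrowest of these, from 17.0 to 65.8 TPM. The order of the medians depended on which transcripts were counted, as given further on.

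**Figure D1:**
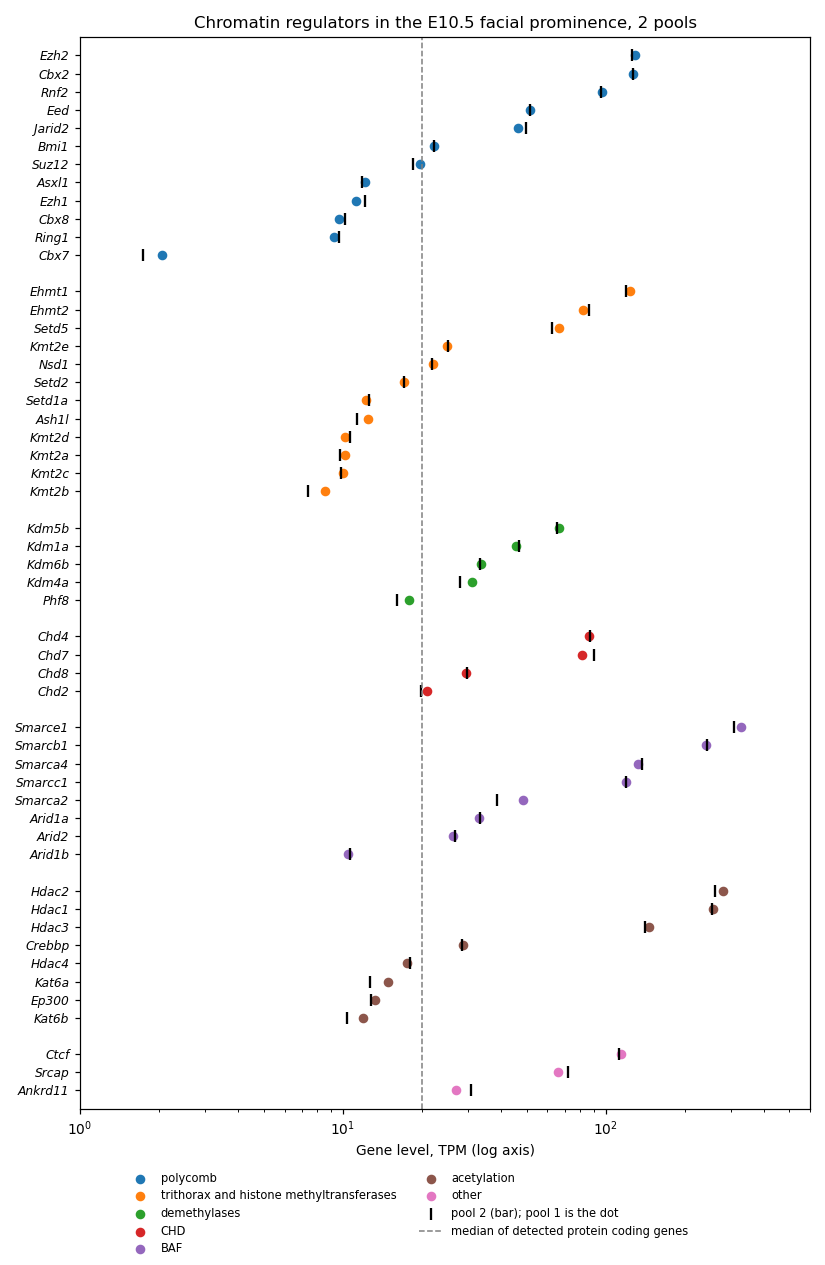
Gene level of the 52 chromatin regulators in TPM on a log axis, grouped by complex; the dot is pool 1, the black bar pool 2, and the dashed line the median over all detected protein coding genes (20.1 TPM). Both pools nearly coincide for most genes, and within every complex the levels spread over several-fold or more, from Cbx7 near 1.90 TPM to Smarce1 near 317 TPM.

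The markers of the tissue were present: all 9 facial mesenchyme markers were detected, led by Msx1 at 292 ± 15.1 TPM and Prrx1 at 107 ± 1.08 TPM (SD, n = 2). All 5 surface ectoderm markers (Krt18 84.7 ± 3.08 TPM, Krt8 81.5 ± 3.02 TPM) and all 5 neuron markers (Tubb3 190 ± 2.65 TPM, Nefl 84.5 ± 4.74 TPM) were detected too. So were all 4 endothelium markers (Egfl7 79.8 ± 2.65 TPM, Kdr 21.5 ± 0.219 TPM), all 4 erythroid markers (Hbb-y 5398 ± 617 TPM, Hbb-bh1 2580 ± 79.0 TPM) and all 3 macrophage markers (C1qb 15.6 ± 1.94 TPM, Csf1r 6.0 ± 1.4 TPM). How much of each regulator's RNA came from which of these cell types was not tested.

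Polycomb repressive complex 2 (PRC2) methylates histone H3 through the enzyme Ezh2, mutated in Weaver syndrome, or its relative Ezh1. Ezh2 (ENSMUSG00000029687, chr6:47530139-47595341, GRCm38) stood at 130 and 126 TPM and Ezh1 at 11.3 and 12.1 TPM. Ezh2 thus exceeded Ezh1 10.8-fold (95% interval 8.94 to 13.2, from the replicate spread of genes of like level). The core subunits were uneven: Eed, which binds the methylated histone, was at 51.6 TPM in both pools, while Suz12, the scaffold, was at 19.6 and 18.6 TPM. Jarid2, a subunit that helps recruit the complex, was at 46.3 and 49.6 TPM. Of 8 other PRC2 genes, 7 were detected (58.2% of protein coding genes). The histone-binding Rbbp4 (463 ± 4.55 TPM) and Rbbp7 (346 ± 2.66 TPM) led them, followed by Mtf2 (141 ± 3.75 TPM), a Polycomb-like accessory protein. The other Polycomb-like genes were low, Phf1 at 3.17 ± 0.544 TPM and Phf19, the gene not detected, at 0.860 ± 0.0566 TPM.

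Suz12 was estimated to make 2 long coding mRNAs that differ in a coding exon of 69 bases (chr11:79999057-79999125, plus strand). Of the TPM of the transcripts that cross this place, 52.6% in pool 1 and 55.9% in pool 2 was on those with the exon. These are 2 transcripts, against 1 without the exon. Of the 2 long mRNAs alone, the form without the exon, Suz12-206, was the higher, at 31.3% and 30.4% of the gene's TPM. Suz12-201, with the exon, held 27.3% and 26.1%. The exon is shown in capitals, with the 20 coding bases of the neighbouring exons on each side in lower case. It is printed because the 2 forms of a core PRC2 subunit had similar shares:
Suz12 exon: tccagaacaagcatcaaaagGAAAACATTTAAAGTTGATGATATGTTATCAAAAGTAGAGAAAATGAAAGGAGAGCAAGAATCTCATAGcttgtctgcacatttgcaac

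For Jarid2, transcripts from 2 starts 497 bases apart carried most of the level. Those starting within 50 bases of the upstream start held 14.8 and 13.8 TPM (32.0% and 27.8% of the gene's TPM), and those at the downstream start 28.0 and 30.7 TPM (60.4% and 61.9%). The transcripts of the downstream start were the higher in both pools. They also differ at the other end: Jarid2-208, of the downstream start, ends at base 44921643. Jarid2-201 and Jarid2-210, of the upstream start, end at bases 44920995 and 44920108. Use of the starts apart from this difference was not tested. The 100 bases before each start, which no annotated exon of the gene covers, are shown from RefSeq windows on GRCm38.p6, plus strand, with each CG in capitals (chr13:44730674-44730773 and chr13:44731171-44731270); they hold 6 and 5 CG:
Jarid2 upstream start: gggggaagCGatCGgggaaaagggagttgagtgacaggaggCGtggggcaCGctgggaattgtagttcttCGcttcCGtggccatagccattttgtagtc
Jarid2 downstream start: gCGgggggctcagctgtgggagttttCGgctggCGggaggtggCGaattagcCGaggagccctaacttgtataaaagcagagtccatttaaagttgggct

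PRC1, the second polycomb complex, adds ubiquitin to histone H2A. Its catalytic subunit Rnf2 was at 96.8 and 96.2 TPM and the alternative subunit Ring1 at 9.23 and 9.71 TPM, 10.1-fold lower (95% interval of the ratio 8.04 to 12.7). Among the chromodomain subunits, which bind methylated histones and can replace each other, Cbx2 (ENSMUSG00000025577, chr11:119022962-119031270) was at 127 TPM in both pools, Cbx8 at 9.65 and 10.2 TPM and Cbx7 at 2.06 and 1.74 TPM. Cbx2 exceeded Cbx8 12.7-fold (interval 10.3 to 15.6) and Cbx7 63.7-fold (interval 37.0 to 109.8). An exon of Cbx7 shares 100 bases with Apobec3 on the opposite strand, which was at 16.8 TPM, and whether counting used the strand is not given in the sources used here. Bmi1, a partner of the ring subunit, was at 22.3 TPM in both pools and on gene TPM did not exceed its relative Pcgf2 beyond the replicate spread (ratio 1.12, interval 0.973 to 1.28). Asxl1, mutated in Bohring-Opitz syndrome, was at 12.2 and 11.9 TPM. Its exons share 197 bases with 2500004C02Rik on the opposite strand, at 26.5 TPM. The product of Asxl1 works with the deubiquitinase Bap1, at 119 ± 2.06 TPM the highest of 18 other PRC1-linked genes. All 18 were detected (58.2% of protein coding genes), with Yaf2 (91.1 ± 4.88 TPM) and Kdm2b (78.7 ± 1.53 TPM) next and Phc3 (3.73 ± 0.403 TPM) lowest.

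On gene TPM, the large methyltransferases of the trithorax group were low and close to each other. Kmt2a, mutated in Wiedemann-Steiner syndrome, was at 10.2 and 9.76 TPM and its relative Kmt2b at 8.59 and 7.39 TPM. Kmt2d, the main gene of Kabuki syndrome, was at 10.2 and 10.6 TPM and Kmt2c, mutated in a form of Kleefstra syndrome, at 9.99 and 9.82 TPM. On gene TPM neither pair differed beyond the replicate spread (log2 ratio of Kmt2a over Kmt2b 0.32, interval -0.08 to 0.72; of Kmt2d over Kmt2c 0.07, interval -0.33 to 0.47). They were less alike on nearly full coding transcripts, defined further on. There Kmt2d was at 10.1, Kmt2a at 5.6, Kmt2c at 2.8 and Kmt2b at 1.2 TPM, and both pairs were apart. Setd1a, the enzyme of another COMPASS complex, was at 12.2 and 12.6 TPM and the methyltransferase Ash1l at 12.5 and 11.3 TPM. An exon of Ash1l shares 352 bases with Dap3 on the opposite strand, at 120 TPM.

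The methyltransferases of lysine 36 of histone H3, Nsd1, mutated in Sotos syndrome, and Setd2, mutated in Luscan-Lumish syndrome, were at 22.1 and 21.8 TPM and at 17.1 and 17.0 TPM. Kmt2e, a reader related to the trithorax enzymes, was at 24.99 and 25.09 TPM. Setd5, a SET-domain protein mutated in intellectual disability, reached 66.2 and 62.7 TPM as a gene, of which little was on long coding mRNAs, as given further on. Partners of these enzymes were all detected, 15 of 15 (58.2% of protein coding genes). They were led by subunits that the complexes share, Dpy30 (199 ± 3.27 TPM) and Ash2l (113 ± 0.219 TPM), and by Men1 (104 ± 2.91 TPM), a subunit of the Kmt2a and Kmt2b complexes. Ncoa6 (19.1 ± 3.20 TPM) and Setd1b (4.81 ± 0.127 TPM) were lowest of that list.

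Outside polycomb, the highest of the methyltransferases among the 52 genes were Ehmt1, mutated in Kleefstra syndrome, and Ehmt2, which methylate lysine 9 of histone H3 as partners. Ehmt1 (ENSMUSG00000036893, chr2:24789928-24919614) was at 124 and 119 TPM and Ehmt2 at 81.7 and 86.3 TPM. Ehmt1 was the higher 1.45-fold on gene TPM (interval of Ehmt2 over Ehmt1 0.626 to 0.763). The gap was narrower on nearly full coding transcripts, defined further on, at 1.15-fold (61.0 against 53.2 TPM; interval 0.780 to 0.975). By reads per kilobase it was 1.26-fold. Ehmt2 has a coding exon of 102 bases (chr17:34905610-34905711, plus strand) that 58.9% of the TPM crossing it included in pool 1 and 71.3% in pool 2, the widest gap between pools of the exons shown here:
Ehmt2 exon: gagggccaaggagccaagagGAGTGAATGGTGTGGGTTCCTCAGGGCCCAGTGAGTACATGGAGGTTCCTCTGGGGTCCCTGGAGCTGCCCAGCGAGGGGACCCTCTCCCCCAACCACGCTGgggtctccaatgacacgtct

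All 5 histone demethylases were at least 16 TPM in both pools. Kdm5b, which removes methyl groups from lysine 4 of histone H3, was the highest at 66.4 and 65.2 TPM. Kdm1a, the catalytic partner of the CoREST complex, followed at 45.8 and 46.9 TPM and Kdm6b, which erases the PRC2 mark, at 33.7 and 33.2 TPM. Kdm6b exceeded Kdm6a, the X-linked gene of a form of Kabuki syndrome, 1.66-fold (log2 ratio 0.73, interval 0.48 to 0.97). Kdm4a, which acts on lysines 9 and 36 of histone H3, was at 30.9 and 27.9 TPM, and Phf8, mutated in Siderius X-linked intellectual disability with cleft lip and palate, at 17.9 and 16.1 TPM.

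Other demethylase-linked genes were all detected, 13 of 13 (58.2% of protein coding genes). Kdm5c (62.1 ± 2.79 TPM), Kdm3a (46.6 ± 4.07 TPM) and Kdm5a (44.1 ± 0.813 TPM) were highest. Phf2 (6.85 ± 0.453 TPM) and Rcor1 (6.47 ± 0.332 TPM), a CoREST subunit that is not itself a demethylase, were lowest. A coding exon of Kdm1a of 60 bases (chr4:136582040-136582099, minus strand) was included in 48.1% and 38.3% of the TPM that crossed it:
Kdm1a exon: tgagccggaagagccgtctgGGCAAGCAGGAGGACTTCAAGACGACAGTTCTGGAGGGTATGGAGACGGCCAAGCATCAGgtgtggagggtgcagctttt

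Among the CHD remodelers, Chd4 and Chd7 had similar gene levels. Chd4 (ENSMUSG00000063870, chr6:125095981-125130591), the motor of the NuRD complex and mutated in Sifrim-Hitz-Weiss syndrome, was at 86.7 and 87.5 TPM. Chd7 (ENSMUSG00000041235, chr4:8690406-8867659), the gene of CHARGE syndrome, was at 81.1 and 89.9 TPM. Chd8, an autism gene whose product is related to CHD7, was at 29.4 and 29.7 TPM. Chd2, mutated in a childhood epilepsy, was at 20.9 and 19.8 TPM. Exons of Chd2 share 2628 bases with 1810026B05Rik on the same strand, which was at 28.8 TPM. Chd4 exceeded Chd3 2.04-fold (interval 1.82 to 2.29) and Chd7 exceeded Chd8 2.89-fold on gene TPM (interval 2.58 to 3.23). Of 12 other CHD and NuRD genes 11 were detected (58.2% of protein coding genes): the NuRD subunits Mbd3 at 315 ± 1.14 TPM and Mta2 at 180 ± 1.05 TPM and the remodeler Chd3 at 42.8 ± 6.06 TPM were highest and Chd9 at 4.76 ± 0.113 TPM was low. Chd5, a neuronal relative, was at 0.040 TPM in both pools and so below detection.

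Chd4 has a pair of alternative coding stretches, of 21 bases (chr6:125100778-125100798) and 39 bases (chr6:125102432-125102470), both on the plus strand. The first was in 57.0% and 52.3% and the second in 60.5% and 58.7% of the TPM that crossed them:
Chd4 first stretch: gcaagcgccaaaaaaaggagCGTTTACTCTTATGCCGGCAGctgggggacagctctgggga
Chd4 second stretch: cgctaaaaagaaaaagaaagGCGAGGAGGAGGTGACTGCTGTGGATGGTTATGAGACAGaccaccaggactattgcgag

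BAF complexes, the mammalian SWI/SNF remodelers, held 4 of the 11 genes at 100 TPM or more. Smarce1 (ENSMUSG00000037935, chr11:99209047-99231017), at 326 and 308 TPM, was the highest of all 52 genes. Further core subunits were Smarcb1, like Smarce1 a gene of Coffin-Siris syndrome, at 240 and 243 TPM and Smarcc1 at 119 TPM in both pools. Of the ATPases, Smarca4 was at 133 and 138 TPM and Smarca2, mutated in Nicolaides-Baraitser syndrome, at 48.5 and 38.7 TPM, a ratio of 3.12 (interval 2.80 to 3.47). Of the ARID subunits that define the forms of the complex, Arid1a was at 32.9 and 33.4 TPM, Arid2 at 26.3 and 26.7 TPM and Arid1b, the most frequent gene of Coffin-Siris syndrome, at 10.5 and 10.6 TPM. Arid1a exceeded Arid1b 3.11-fold (interval 2.53 to 3.83), and Smarcc1 exceeded its relative Smarcc2 2.12-fold (interval 1.92 to 2.35).

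Actl6a, the actin-related subunit of progenitor cells, exceeded Actl6b, its counterpart in neurons, 63.2-fold (interval 47.7 to 83.7; 237 ± 7.51 against 3.66 ± 0.283 TPM). All 17 other BAF genes were detected (58.2% of protein coding genes), with Dpf2 (188 ± 12.6 TPM) and Pbrm1 (131 ± 6.50 TPM) next to Actl6a and Dpf3 (2.4 ± 0.12 TPM) lowest. A coding stretch of 27 bases in Smarcb1 (chr10:75916773-75916799, minus strand) was in 65.2% and 61.4% of the TPM crossing it, and a stretch of 9 bases in Smarca4 (chr9:21686013-21686021, plus strand) in 32.5% and 30.8%:
Smarcb1 stretch: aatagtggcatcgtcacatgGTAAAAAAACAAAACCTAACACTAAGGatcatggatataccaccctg
Smarca4 stretch: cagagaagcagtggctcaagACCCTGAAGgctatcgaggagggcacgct

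Of the genes of histone acetylation, the class I deacetylases Hdac2 (280 and 260 TPM), Hdac1 (256 and 254 TPM) and Hdac3 (146 and 141 TPM) were all above 100 TPM, while the class II enzyme Hdac4 was at 17.5 and 18.1 TPM. Hdac1 and Hdac2 did not differ beyond the replicate spread on gene TPM (ratio interval 0.868 to 1.03), and Hdac1 exceeded Hdac3 1.78-fold (interval 1.63 to 1.94). Crebbp, the main gene of Rubinstein-Taybi syndrome, was at 28.7 and 28.3 TPM and its relative Ep300 at 13.3 and 12.8 TPM, a ratio of 2.17 (interval 1.83 to 2.58). Kat6a, mutated in Arboleda-Tham syndrome, was at 14.8 and 12.7 TPM and Kat6b, of the Ohdo and genitopatellar syndromes, at 11.9 and 10.4 TPM. Their ratio of 1.23 had an interval that only just left out 1, and it did not with posterior mean TPM or with either pool alone. On nearly full coding transcripts, defined further on, Kat6a was 2.5-fold higher (interval 1.89 to 3.31), and by reads per kilobase 1.55-fold.

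All 21 other genes of acetylation were detected (58.2% of protein coding genes). The corepressor Ncor1 (118 ± 4.86 TPM), the acetyltransferase Kat7 (76.3 ± 6.95 TPM) and the KAT6 complex subunit Meaf6 (69.1 ± 2.58 TPM) were highest, and Kat2b (1.93 ± 0.226 TPM) and Hdac9 (1.60 ± 0.219 TPM) were lowest.

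The remaining genes were Ctcf, the insulator protein that shapes chromosome loops (ENSMUSG00000005698, chr8:105636568-105682922), at 114 and 112 TPM, Srcap, the remodeler mutated in Floating-Harbor syndrome, at 65.8 and 72.1 TPM, and Ankrd11, a coregulator that binds deacetylases and is mutated in KBG syndrome, at 27.1 and 30.9 TPM. Most of the TPM of Ctcf and Srcap was on transcripts other than nearly full coding ones, as described next.

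A gene's TPM adds all of its annotated transcripts, and TPM gives a short transcript the same weight as a long one. The level was therefore also summed over the transcripts whose coding sequence is complete and at least 90% as long as the longest of the gene, called nearly full coding transcripts here. Of the summed TPM of the 52 genes, 77.1% was on these transcripts in both pools, and of their reads 88.1% and 88.2%. Over all detected protein coding genes the shares were 76.9% and 77.0% of TPM. Processed transcripts without a coding sequence held 6.93% and 6.75% of the TPM of the 52 genes (3.63% and 3.65% over all detected genes) and retained-intron transcripts 6.34% and 6.61% (5.69% and 5.65%). Of the 49 genes with at least 2 transcripts, 14 had less than 50% of their TPM on nearly full coding transcripts, or 28.6%, beside 26.1% of the 9182 such detected protein coding genes. Counted by reads in place of TPM, 7 of the 49 did (16.1% of those genes).

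The lowest share was that of Smarca2 (ENSMUSG00000024921, chr19:26605050-26778322). Its nearly full coding transcripts held 2.68 and 2.03 TPM, 5.52% and 5.25% of the gene's TPM and 20.9% and 20.3% of its reads. The leading transcript, Smarca2-215 (38.8% and 39.1% of the gene's TPM), is annotated in GENCODE M21 as subject to nonsense-mediated decay, with an incomplete start inside the gene at base 26710548. Further transcripts that start near base 26748403 followed, Smarca2-203 at 8.15 and 6.63 TPM among them. On nearly full coding transcripts Smarca4 exceeded Smarca2 55.3-fold (interval 39.2 to 77.9), and by reads per kilobase of the longest coding transcript 10.7-fold.

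Chd7 was similar in kind. Its full coding mRNA, Chd7-202, was at 11.6 and 14.2 TPM. Chd7-203, a fragment of 2381 bases whose end is not annotated, held 47.7 and 50.6 TPM (58.7% and 56.3% of the gene's TPM). Chd7-206, a coding transcript annotated at both ends, held 18.6 and 22.0 TPM (22.9% and 24.4%), more than Chd7-202 in both pools. The coding sequence of Chd7-206 has 2823 bases against 8958 in Chd7-202, so it was not counted as nearly full coding. Of the reads, 38.8% and 41.7% were on nearly full coding transcripts. The order of Chd7 and Chd8 changed with this: on nearly full coding transcripts Chd8 was 1.55-fold higher (19.9 against 12.9 TPM; interval of Chd7 over Chd8 0.553 to 0.757), whereas by reads per kilobase Chd7 was 1.46-fold higher. The direction of this pair therefore depended on the scale.

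For Ctcf, the processed transcript Ctcf-202 of 528 bases held 66.7 and 65.9 TPM (58.5% and 58.8%) and the coding mRNA 40.3 and 40.4 TPM. By reads the proportion was the other way, with 80.4% and 80.8% of reads on the coding mRNA. Setd5 had 5.86 and 5.67 TPM on nearly full coding transcripts (8.85% and 9.05%), and its leading transcript Setd5-212 (19.0% and 23.3%) is noncoding. Srcap had 8.13 and 9.73 TPM (12.4% and 13.5%), Kmt2b 1.11 and 1.34 TPM (12.9% and 18.1%) and Arid1b 1.87 and 1.95 TPM (17.8% and 18.3%). The leading Arid1b transcript, Arid1b-203 (62.4% and 58.1%), has a coding sequence of 5286 bases against 6732 in the longest and so fell outside the 90% rule.

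At the other end, nearly all of the TPM of Smarca4 (99.4% in both pools), Hdac2 (99.1% and 99.2%), Kmt2e (98.9% and 99.0%), Cbx2 (98.8% and 98.4%) and Kmt2d (98.0% and 96.0%) was on nearly full coding transcripts. Nsd1, Setd2 and Smarcc1 had a single quantified transcript each. With only these transcripts counted, the median of the 52 genes was 21.5 TPM (13.6 TPM over detected protein coding genes), 51 of the 52 were still at 1 TPM or more in both pools, and Cbx7, at 0.520 and 0.620 TPM, was not. The CHD median was 16.4 in place of 57.5 TPM, which put it below the medians of the demethylases (31.9 TPM), acetylation genes (20.3 TPM) and polycomb genes (16.5 TPM). The median of Ctcf, Srcap and Ankrd11 was 23.0 in place of 69.0 TPM. Partner genes carry the same limit. On nearly full coding transcripts Ncor1 was at 7.0 in place of 118 TPM, Pbrm1 at 24.4 in place of 131 and Kdm2b at 7.14 in place of 78.7. Kdm5a was at 1.24 in place of 44.1 TPM, with pools far apart (0.15 and 2.32 TPM). Mtf2 was at 20.7 in place of 141, Mbd3 at 58.2 in place of 315 and Ash2l at 35.2 in place of 113. Rbbp4 (181 TPM) lay below Rbbp7 (344 TPM). Others, such as Dpy30 (199 TPM on both scales), did not change. The order within the partner lists is therefore one of gene TPM.

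**Figure D2:**
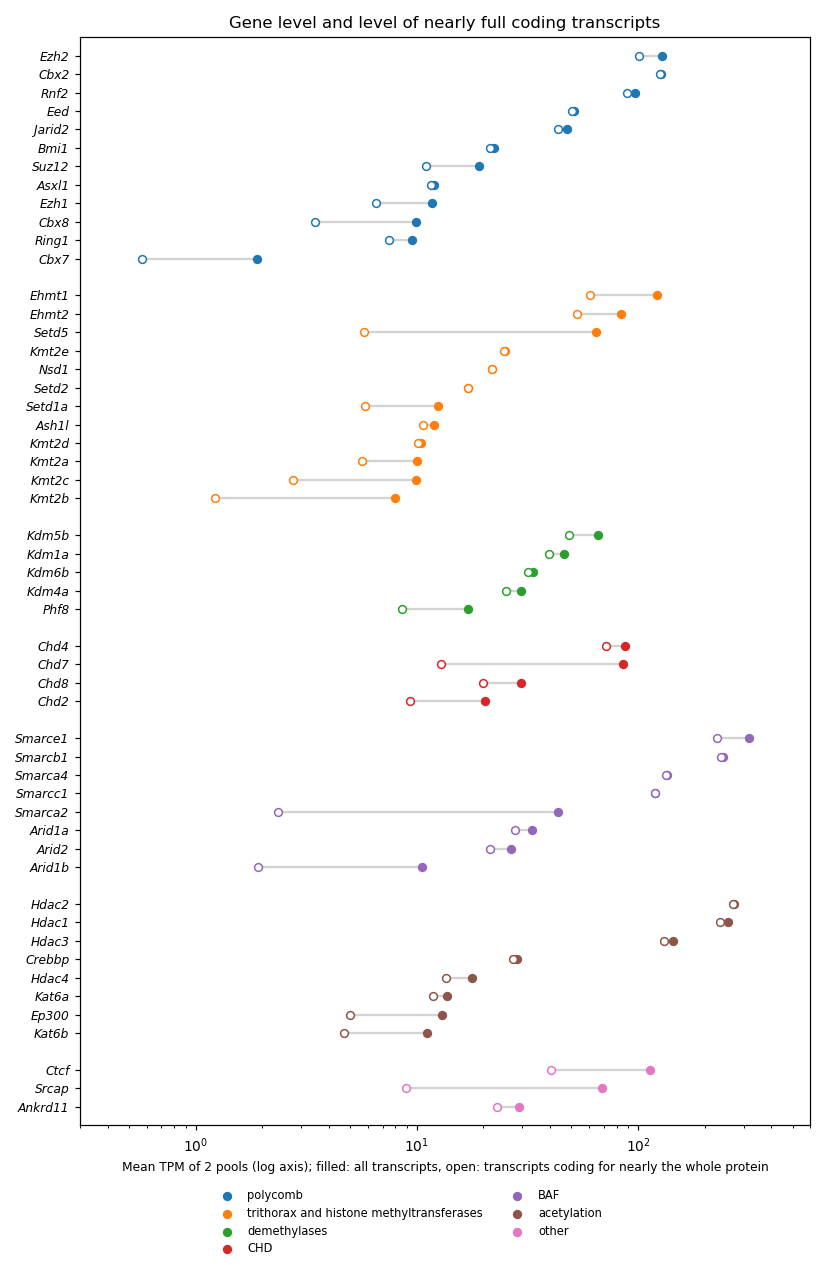
Mean TPM of the 2 pools for each gene on a log axis, over all transcripts (filled) and over nearly full coding transcripts (open), grouped by complex. The long grey lines of Smarca2 (43.6 to 2.36 TPM), Setd5 (64.4 to 5.76 TPM), Srcap (69.0 to 8.93 TPM) and Chd7 (85.5 to 12.9 TPM) stand beside genes such as Smarca4 and Hdac2, whose dots coincide.

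The 19 pairs of related genes were compared on all 3 scales. A pair was called apart where the 95% interval left out an equal level and both pools had the same sign, with no adjustment for the number of pairs. On gene TPM 15 of the 19 were apart, and on each of the other scales all 19. In 14 pairs the genes were apart in the same direction on all 3. Ezh2 over Ezh1, Rnf2 over Ring1, Cbx2 over Cbx7 and Cbx8, Actl6a over Actl6b, Smarca4 over Smarca2, Arid1a over Arid1b and Crebbp over Ep300 were among these. The 4 pairs that were not apart on gene TPM were apart on nearly full coding transcripts. Kmt2a exceeded Kmt2b 4.34-fold (interval 2.75 to 6.86) and Kmt2d exceeded Kmt2c 3.57-fold (2.73 to 4.67). Bmi1 exceeded Pcgf2 1.55-fold (1.35 to 1.79) and Hdac2 exceeded Hdac1 1.14-fold (interval of Hdac1 over Hdac2 0.808 to 0.944). By reads per kilobase the folds of these 4 pairs were 2.00, 1.87, 1.94 and 1.12, in the same order. Several other pairs kept their direction but were wider apart on nearly full coding transcripts than on gene TPM, while Ehmt1 and Ehmt2 were closer. Crebbp over Ep300 was 2.17-fold on gene TPM and 5.37-fold (4.17 to 6.92) on nearly full coding transcripts, and 3.86-fold by reads per kilobase. Arid1a over Arid1b was 3.11-fold and 13.9-fold (10.3 to 18.9), where the 90% rule left out Arid1b-203, and 3.81-fold by reads per kilobase. Chd4 over Chd3 was 2.04-fold and 5.31-fold (4.63 to 6.08; 3.8-fold by reads per kilobase), and Cbx2 over Cbx8 12.7-fold and 35.3-fold (28.3 to 44.0; 26.8-fold by reads per kilobase).

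**Figure D3:**
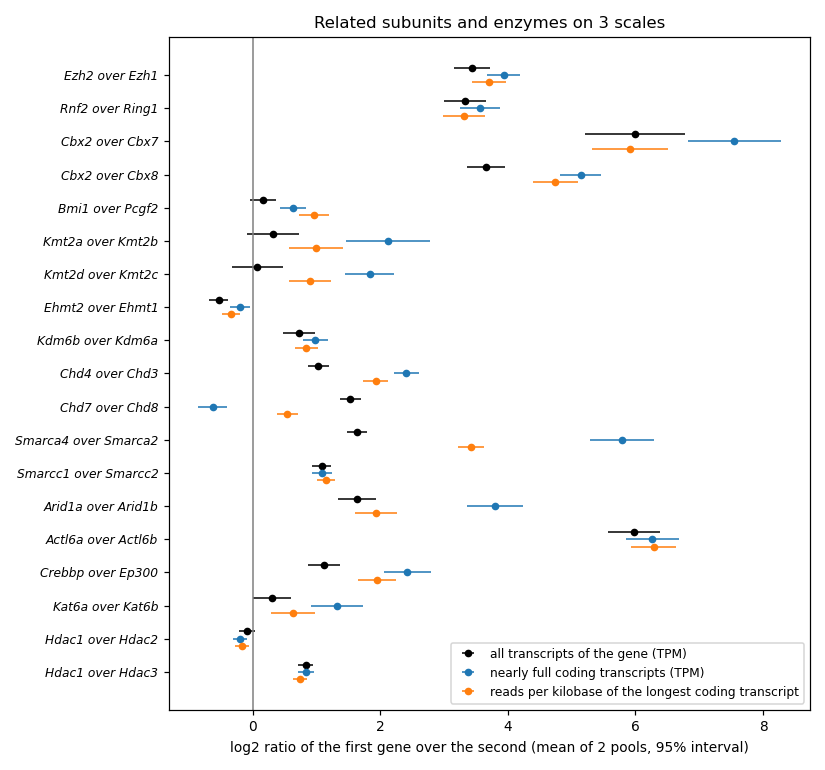
The log2 ratio of 19 pairs of related genes, as the mean of 2 pools with its 95% interval, on gene TPM (black), TPM of nearly full coding transcripts (blue) and reads per kilobase of the longest coding transcript (orange). Most pairs stay on 1 side of the line at 0 on all 3 scales, and Chd7 over Chd8 crosses it.

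The transcript with the largest share, the leading one, was the same in both pools for 43 of the 48 genes with at least 2 transcripts and a mean of at least 5 TPM (89.6%, beside 93.8% of 7738 such genes). The exceptions were Suz12, Kmt2a, Kdm5b, Kat6b and Srcap, in each of which the top transcripts had close shares in at least 1 pool. In Kdm5b, for example, Kdm5b-201 held 37.0% and 36.5% and Kdm5b-203 37.0% and 37.9%. In Kmt2a the full mRNA Kmt2a-201 held 51.9% and 39.2% and the fragment Kmt2a-203 41.9% and 41.4%. The leading transcript in pool 1 was not protein coding in 8 of the 52 genes: Suz12, Cbx8, Kmt2b, Setd5, Smarca2, Kat6b, Srcap and Ctcf. In pool 1, leading shares of the genes with at least 2 transcripts ran from 19.0% for Setd5-212 to 99.1% for Hdac2-201. The transcript leading Srcap in pool 1 (22.3%; 19.3% in pool 2) is one that GENCODE M21 gives to the overlapping gene Gm42715, and in pool 2 Srcap-205 led (20.3%).

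The rule for coding stretches found 8 of them in 6 genes. It took the 2 most abundant nearly full coding transcripts of a gene where each held at least 10% of its TPM in both pools. All 8 were whole codons long. The mean share with the stretch ran from 31.6% in Smarca4 to 65.1% in Ehmt2, and the pools differed by at most 12.4 percentage points. With 2 pools and no read counts across the junctions, these shares carry no test. A stretch of 3 bases in Smarca4 (32.1% and 32.7%) is not printed.

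**Figure D4:**
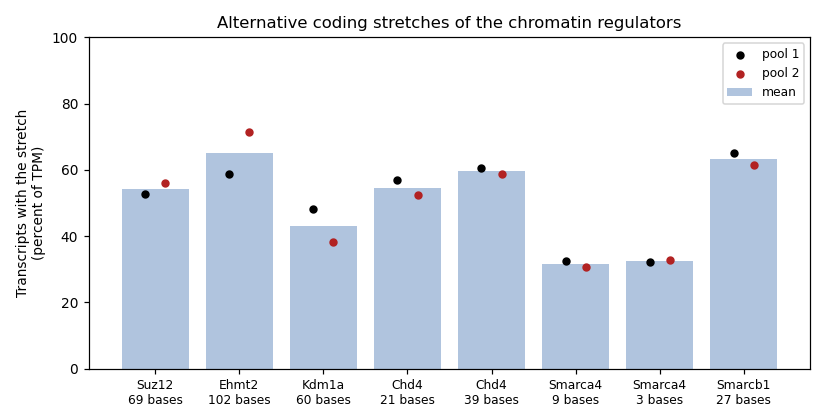
Percent of the TPM crossing each alternative coding stretch that was on transcripts with it; bars are the mean of 2 pools and dots the pools. The shares lie between 30.8% and 71.3%, and the pools lie farthest apart for the exons of Ehmt2 (58.9% and 71.3%) and Kdm1a (48.1% and 38.3%).

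None of the 52 genes differed 1.5-fold between the pools, where 4.62% of the 14121 genes whose mean count was 50 or more did. Of the 52, only Smarca2 differed by 25% or more, 1 of 52 or 1.92% (12.7% of all). Smarca2 was lower in pool 2 by 1.26-fold (1953 and 1514 estimated counts; log2 ratio of pool 2 over pool 1 -0.33), and the next lower ones were Cbx7 (-0.16), Setd1a (-0.10), Suz12 (-0.09) and Kat6b (-0.09). The largest ratios in the other direction were those of Chd7 (8006 and 9104 counts; 0.22), Ankrd11 (5560 and 6182 counts; 0.19), Ezh1 (0.09), Jarid2 (0.09) and Smarca4 (0.09). With 1 library per pool, these differences carry no test.

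The median absolute log2 ratio was 0.037 over the 52 genes and 0.094 over all tested genes. The 52 had more reads (median mean count 4785 against 1155), and among the 3630 genes between the quartiles of their counts, 2127 to 7361, the median was 0.061, beside 0.026 for the 26 of the 52 in that range. Of those 3630 genes, 0.22% were 1.5-fold apart, so the absence of such a difference among the 52 is close to what genes of like count show. Of the marker genes, Alx1, a homeobox gene of the frontonasal mesenchyme, was lower in pool 2 (78.8 and 47.8 TPM, 1.62-fold). The facial mesenchyme markers summed to 761 and 722 TPM. Msx1, the largest part of that sum, was higher in pool 2 (281 and 303 TPM). The median log2 ratio of pool 2 over pool 1 over the 9 mesenchyme markers was -0.16. The ectoderm markers summed to 259 and 267, neuron markers to 413 and 415, endothelium markers to 134 and 127, macrophage markers to 25.6 and 20.4 and erythroid markers to 10727 and 9703 TPM. The part of these in the ratios of Smarca2 or Chd7 was not tested.

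**Figure D5:**
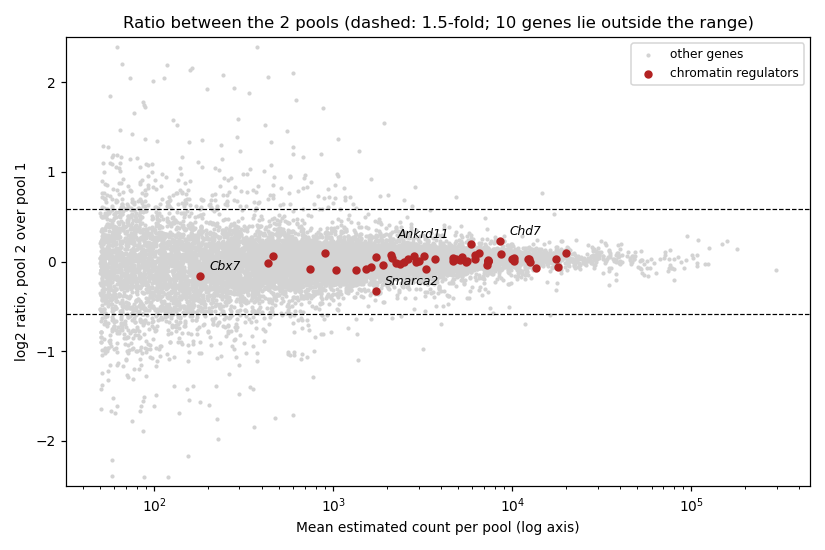
The log2 ratio of pool 2 over pool 1 against the mean estimated count (log axis) for all genes whose mean count was 50 or more; the chromatin regulators are red and the dashed lines mark 1.5-fold. All 52 lie between the lines, with Smarca2 (-0.33) lowest and Chd7 (0.22) highest.

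The 52 genes had long coding sequences, with a median of 4587 bases for the longest, beside 1389 over detected protein coding genes, of which 94.5% had a shorter one than that median. They ran from 753 bases in Cbx7 to 16764 in Kmt2d. The most abundant were the shorter ones: the 11 genes at 100 TPM or more had a median of 1557 bases and the 19 under 20 TPM a median of 5616. Across the 52 genes, coding length and gene TPM had a Spearman rho of -0.35 (-0.39 with nearly full coding transcripts), and across detected protein coding genes of -0.22. This is across genes of the same 2 libraries, and TPM itself is divided by transcript length.

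RefSeq windows of 250 bases before to 50 after a start were found for 39 of the 52 genes. In 38 of the 39 (97.4%) the CpG frequency was at least 0.6 of that expected from the C and G content, as it was in 78.1% of 9791 detected protein coding genes and in 38.2% of all genes with a window. The median window held 31 CpG (22 in detected genes), and the window of Setd5, with 1 CpG, was the exception. That window is at the start of the noncoding Setd5-212 (base 113104935), inside a gene annotated from base 113077365. It therefore does not describe the annotated start of Setd5. The windows of Ankrd11, Chd8 and Crebbp had no transcript of the gene starting within 50 bases. Where a gene has several windows, the one with the most CpG was taken. Windows were not used for Cbx2, Kmt2b, Kmt2e, Ash1l, Nsd1, Kdm6b, Chd2, Chd7, Smarce1, Arid2, Kat6a, Hdac1 and Hdac3.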

How the data were processed

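Total RNA-seq of 2 pools was quantified by the authors against GENCODE M4 on mm10, per the accompanying notes; the aligner and quantifier are not given in the sources used here. Deposited per gene and transcript were expected counts (not normalized), TPM (scaled by the authors over all features, spike-ins included) and the percent of each transcript within its gene. Deposited confidence bounds were treated as a score and not used. Estimated lengths were deposited in bases. Names, coordinates and transcript classes came from GENCODE M21 on GRCm38, where 43 of 358 transcripts of the 52 genes have another length and 2 are missing.

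Ratios between the pools used expected counts rounded to whole numbers, TMM scaling (edgeR 4.0.16; DESeq2 1.42.0 size factors as an alternative) and a prior count of 2. Pairs were compared on log2(TPM + 0.1), with the SD between pools averaged, as a variance, over 200 genes of like level and intervals of 1.96 standard errors. Gene-specific errors of TPM are not in that spread. Both steps were tested on simulated data only. For the ratios the simulated spread beyond counting noise was the same for every gene, and for the pairs it depended on level alone. Errors of sharing reads among transcripts were not simulated, so the test does not cover them. The pools were no duplicates of each other (chi-square 8.93 per degree of freedom over 17567 genes). The members, lists, pairs and named genes (every member, the 3 highest and 2 lowest of each partner list, the 2 highest of each marker list) were chosen with earlier results of these data known. A partner gene that this rule took is not reported here. The class of nearly full coding transcripts and the printed stretches were chosen after their values were seen.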

Additional observations from a re-analysis of the deposited data

How the results depend on the processing

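The 52 genes remained detected at 0.5 TPM, with posterior mean TPM and in either pool alone, and 51 were at 5 TPM or more. No gene was 1.5-fold apart with DESeq2 size factors, the plain TPM ratio, posterior mean counts, a prior count of 0.5 or no minimum count, or at 2-fold; 1 was 25% or more apart. The median level of 29.2 TPM was 28.7 with posterior mean TPM, 31.9 when TPM was rescaled over Ensembl genes and 29.0 with either pool alone (28.99 and 29.04). Posterior mean TPM gave medians of 21.1 for polycomb genes, 14.8 for the histone methyltransferases, 32.8 for demethylases and 22.9 for acetylation genes; each pool alone gave 14.8 (14.79 and 14.81) for the methyltransferases. With nearly full coding transcripts, added after the data were seen, the medians were 21.5 over all, 16.5 for polycomb, 10.4 for the methyltransferases, 31.9 for demethylases, 16.4 for CHD, 73.6 for BAF, 20.3 for acetylation and 23.0 for the other genes. That scale reversed Chd7 over Chd8 (log2 ratio -0.63) and no other pair. With the spread of the 50 nearest genes, Kmt2a over Kmt2b was also apart on gene TPM, but its interval only just left out 0 (log2 0.00033 to 0.64). With posterior mean TPM or either pool alone the interval held 0. Genes under 50% on such transcripts numbered 14, 13 with 75% of the coding sequence required and 7 by reads. No paired analysis was possible because there was 1 group. Exons of 12 of the 52 genes share bases with another detected gene, in 11 on the opposite strand, and no source used here gives the use of strand. Transcript shares are the authors' estimates, with 2 pools and no junction counts behind them.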
